A study of Mus with 2 samples.

Results

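The 10 genes described here are Fos, Fosb, Jun, Junb, Jund, Egr1, Ier2, Dusp1, Zfp36 and Klf6, which are 10 of the 27998 genes counted. They were taken by symbol, and they had been selected on measured values of these same libraries, in which most of them were lower without Id2, so their levels and ratios are given as a description. Single-cell RNA counts were made from hematopoietic stem cells (HSCs) of mouse bone marrow from tibia and fibula, sorted as LSK FLT3- CD150+ CD48-, that is lineage-negative cells with Sca-1 and c-Kit selected further on 3 surface proteins. There was 1 library of Mx1-Cre Id2+/+ cells and 1 of Mx1-Cre cells with Id2 deleted (Id2Δ/Δ, called Id2-deleted), each from 1000 sorted cells of 5 pooled mice aged 8 to 12 weeks. All animals carried Mx1-Cre, a recombinase under an interferon-responsive promoter that acts in blood cells and in other tissues, and per the study's methods cells were taken 2 weeks after pIpC, the double-stranded RNA that switches it on. A clause of the label for the Id2-deleted cells names Id2+/+ bones as their source, whereas its title and genotype state the deletion, which set the group.

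Immediate early genes are transcribed within minutes of a signal, from kinases acting on factors already present, with no need for new protein. Fos and Jun proteins pair through leucine zippers into AP-1, which binds DNA and switches on later genes. Dusp1, a phosphatase that turns off MAP kinases, and Zfp36, which binds AU-rich mRNAs and leads to their decay, are induced with them and limit the response. In blood stem cells these genes are known to be readily detected, and they are also known to be induced when tissue is taken apart and cells are handled.

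With 1 library per genotype there was no replicate check and no test between genotypes, and every interval below is at 95% and covers counting error only. The libraries held 8612217 (Id2+/+) and 17140713 (Id2-deleted) unique molecular identifiers (UMIs), which count RNA molecules. Cells of other kinds were set apart by cluster, leaving 262 and 416 retained cells, with a median of 7081 and 9663 UMIs. All 12 HSC markers were detected in the retained cells of both libraries. Id2 had 22 UMIs in the retained Id2+/+ cells and 0 in those of the Id2-deleted library, a limit of 0.640 counts per 1000000 UMIs (CPM). The libraries shared 1 called cell barcode. The retained cells also differed in the summed CPM of marker lists, with 1341 and 2053 for 6 megakaryocyte or platelet genes, 1117 and 657 for 12 neutrophil genes, 956 and 612 for 4 haemoglobin genes and 1291 and 983 for the 12 HSC markers, Id2+/+ given first. Those of 6 macrophage or monocyte genes were 40.8 and 14.5 CPM, and those of 5 basophil or mast cell genes 15.5 and 5.34 CPM. The remaining lists had 3145 and 2693 CPM for erythroid, 90.5 and 44.8 CPM for B cell, 104 and 124 CPM for T or NK cell and 8.91 and 3.20 CPM for endothelial or stromal genes. The part of these differences in the levels below was not tested, apart from the values without Pf4 cells given further on.

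In the retained cells all 10 genes were lower in the Id2-deleted library. Fos, Jun, Dusp1, Egr1, Klf6, Zfp36 and Fosb were lower by 2-fold or more, and Jund, Ier2 and Junb by less. The 7 genes past 2-fold lower stood beside 4.43% of the 10458 genes with at least 20 UMIs, and the 10 genes whose interval of the ratio lay below 1 stood beside 13.3% of those genes. Because this contrast chose the genes, nothing is read from these counts. The median log2 ratio of the 10 genes was -1.64, and that of all genes was -0.08 (Id2-deleted over Id2+/+, with 0.5 added to each count). Their summed level went from 1763 CPM (1707–1821) in Id2+/+ cells to 683 CPM (659–707) in Id2-deleted cells, a ratio of 0.387 (0.369–0.406).

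The Fos family members form AP-1 only with a partner. Fos (ENSMUSG00000021250) stood at 211 CPM (192–231) in retained Id2+/+ cells and at 35.2 CPM (30.0–41.0) in retained Id2-deleted cells, from 450 and 165 UMIs. Its ratio of 0.167 (0.139–0.20) was the 14th lowest of the 10458 genes and the lowest of the 10. Fosb (ENSMUSG00000003545), which is spliced into a long and a short form that 3′ tags do not separate, went from 64.7 CPM (54.3–76.4) to 23.3 CPM (19.1–28.1), a ratio of 0.360 (0.277–0.466).

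The Jun proteins can pair with each other as well as with Fos proteins, and they split into a gene lower by over 3-fold and a pair lower by less than 2-fold. Jun (ENSMUSG00000052684) went from 625 CPM (592–659) to 182 CPM (170–194), a ratio of 0.291 (0.267–0.317), from 1333 and 852 UMIs. Jund (ENSMUSG00000071076), which is known for steady expression in unstimulated cells, went from 336 CPM (312–362) to 193 CPM (181–206), a ratio of 0.575 (0.520–0.635). Junb (ENSMUSG00000052837), a weaker activator that can oppose Jun, went from 70.3 CPM (59.5–82.5) to 50.6 CPM (44.3–57.4), a ratio of 0.719 (0.584–0.889). That was the ratio nearest to 1 among the 10. The intervals of the Jun and Jund ratios, and of the Jun and Junb ratios, did not overlap.

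Egr1 and Klf6 encode zinc-finger transcription factors outside AP-1. Egr1 (ENSMUSG00000038418), an early growth response factor that has been tied to the quiescence of HSCs, had the fewest UMIs of the 10, with 82 and 50, and stood at 38.4 CPM (30.6–47.7) and 10.7 CPM (7.92–14.1). Klf6 (ENSMUSG00000000078), a Krüppel-like factor, stood at 56.2 CPM (46.6–67.3) and 16.6 CPM (13.2–20.8). Their ratios were close to each other, 0.278 (0.191–0.399) for Egr1 and 0.296 (0.22–0.397) for Klf6. With cells thinned at random to the same number of UMIs they were less close, at log2 ratios of -1.16 for Egr1 and -1.73 for Klf6.

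The feedback genes were lower too. Dusp1 (ENSMUSG00000024190) went from 132 CPM (117–149) to 34.1 CPM (29.1–39.9), a ratio of 0.258 (0.211–0.315) and the lowest after Fos. Zfp36 (ENSMUSG00000044786) went from 45.9 CPM (37.3–56.0) to 16.0 CPM (12.6–20.1), a ratio of 0.348 (0.254–0.476). Ier2 (ENSMUSG00000053560), an early response gene of a nuclear protein, went from 184 CPM (166–203) to 121 CPM (112–132), a ratio of 0.661 (0.580–0.754).

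In the RefSeq annotation of GRCm38.p6, the assembly called mm10 in the submitters' processing notes, the 3 genes lower by less than 2-fold lie on the same chromosome, which was noticed after their values were seen, Jund at chr8:70697739-70700616, Ier2 at chr8:84661331-84662852 and Junb at chr8:84976909-84978748. The 546 genes of chromosome 8 with at least 20 UMIs had a median log2 ratio of -0.09, and 4.76% of them were lower by 2-fold or more, close to the values over all genes. Fos lies at chr12:85473890-85477274, Jun at chr4:95049036-95052222, Dusp1 at chr17:26505591-26508472 and Klf6 at chr13:5861489-5870393. Fosb at chr7:19302696-19310118 and Zfp36 at chr7:28376784-28379228 share a chromosome. All 10 are annotated as protein coding.

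No cell held more than 9.18% of the UMIs of a gene in the Id2+/+ library, the highest value being for Zfp36, or more than 10.0% in the Id2-deleted library, for Egr1, whose 50 UMIs there were counted over 416 cells. Jund was the most even, its 27 Id2+/+ cells with the most UMIs holding 25% of its counts and the corresponding 42 Id2-deleted cells 30.1%. For Fos these shares were 43.1% and 69.7%, and such a share also rises as the counts per cell fall. Fewer cells with RNA and less RNA in every cell both lower a summed level, and the share of cells with a UMI was therefore examined.

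To compare shares, cells were thinned at random to 5800 UMIs, which left 196 Id2+/+ cells (66 shallower cells were left out) and all 416 Id2-deleted cells. A Fos UMI was found in 50% (42.8–57.2) of the Id2+/+ cells and 17.8% (14.2–21.8) of the Id2-deleted cells. Without thinning the Fos shares were 55.7% and 22.1%. In erythroid-like cells, thinned alike, the Fos shares were 8.82% (1.86–23.7) of 34 cells and 1.28% (0.156–4.55) of 156 cells, below the retained cells. These cells were thinned from medians of 37549 and 40038.5 UMIs, so any free RNA in them was thinned more. Their shares therefore give no level of free RNA for the retained cells. Without thinning the erythroid-like Fos shares were 45.7% (28.8–63.4) and 10.3% (5.98–16.1), and the Id2+/+ interval holds the 55.7% of the retained cells. In neutrophil-like cells the Fos shares were 33.3% (16.5–54.0) of 27 cells and 7.5% (1.57–20.4) of 40 cells, and their intervals overlapped those of the retained cells.

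The share with Jun was 81.1% (74.9–86.3) and 50.7% (45.8–55.6), compared with 17.6% and 12.2% in erythroid-like cells. Dusp1 was found in 45.9% (38.8–53.2) and 19.5% (15.8–23.6), and Fosb in 31.1% (24.7–38.1) and 11.8% (8.84–15.3). Klf6 was found in 24.0% (18.2–30.6) and 10.1% (7.37–13.4), and Zfp36 in 20.9% (15.4–27.3) and 8.17% (5.73–11.2). With Fos and Jund, these were the 7 of the 10 genes whose intervals did not overlap between the libraries, beside 2.45% of the 10458 genes lower in the same way, and since the genes were chosen on this contrast nothing is read from that count. Egr1 was found in 13.3% (8.85–18.8) and 6.25% (4.12–9.02), and its intervals overlapped slightly.

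Jund was detected in 82.1% (76.1–87.2) and 63.9% (59.1–68.6) of thinned cells, with erythroid-like shares of 38.2% and 48.1%. Ier2 was found in 59.7% (52.5–66.6) and 51.9% (47.0–56.8), and its intervals overlapped. For Junb the shares of 26.5% (20.5–33.3) and 24.8% (20.7–29.2) were nearly the same, and the Id2+/+ share of erythroid-like cells, 20.6% (8.70–37.9), had an interval that holds both, whereas that of the Id2-deleted erythroid-like cells, 10.9% (6.48–16.9), lay below the retained cells. A lower share of cells with Junb was therefore not detectable at this depth. Without thinning the Junb shares, 34.0% and 39.4%, and the Ier2 shares, 67.9% and 70.2%, had the opposite order. With all 262 and 416 cells thinned to 3000 UMIs the Junb shares were 13.7% (9.81–18.5) and 14.9% (11.6–18.7), and the Ier2 shares 36.3% (30.4–42.4) and 31.7% (27.3–36.4), so that both genes had overlapping intervals.

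Counted cell by cell, a thinned Id2+/+ cell held a median of 5 of the 10 genes and a thinned Id2-deleted cell a median of 2. Cells with 5 or more of the genes made up 52.0% (44.8–59.2) of the Id2+/+ cells and 11.5% (8.63–15) of the Id2-deleted cells. None of the 10 was found in 1.53% (0.317–4.41) and 6.49% (4.32–9.30). In the erythroid-like cells the median was 1 in both libraries, and 0 of 34 and 0 of 156 cells held 5 or more, which allows up to 8.82% and 1.92%.

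**Figure D1:**
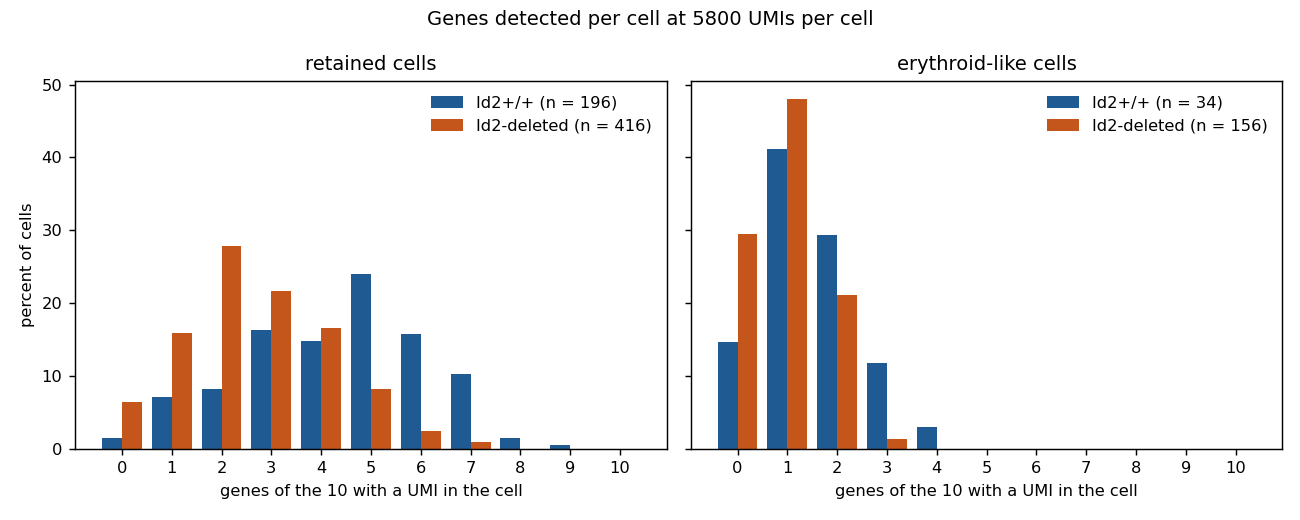
Bars give the percent of cells (vertical axis) with each number of the 10 genes detected (horizontal axis), after every cell was thinned to 5800 UMIs, for retained cells on the left and erythroid-like cells on the right, with Id2+/+ in blue and Id2-deleted in orange. The Id2+/+ retained cells peak at 5 genes and the Id2-deleted retained cells at 2, whereas both libraries peak at 1 in the erythroid-like cells.

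Across thinned cells of the same library the genes were only weakly related. The median Spearman rho of the 45 pairs was 0.12 over the 196 Id2+/+ cells, with a range of -0.13 to 0.35, and 0.05 over the 416 Id2-deleted cells, with a range of -0.06 to 0.28. Fos with Jun had the highest rho in Id2+/+ cells, 0.35, and reached 0.22 in Id2-deleted cells. Jun with Jund was highest in Id2-deleted cells, at 0.28. The cells of a library share their capture and sequencing, and with counts this sparse these values describe only how the UMIs fell.

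The genes outside the 10 whose counts followed them most across cells were named by their mean rho with the average of the 10, among 5710 genes. Malat1, a long nuclear RNA, led with 0.50 in Id2+/+ and 0.38 in Id2-deleted cells. It stood at 10841 and 7110 CPM, a log2 ratio of -0.61. Ifitm1, mt-Co1, Itm2b, Ltb, Gm19590, Rps9 and Tmem176b followed, with mean rho between 0.24 and 0.30. None of these 8 genes was lower by 2-fold, Gm19590 coming closest at -0.98, and Rps9, a ribosomal protein gene, was slightly higher at 0.08.

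The retained cells of each library were then clustered on their own, with the 10 genes and the related lists left out of the clustering, giving 6 clusters per library. In the Id2+/+ library the summed level ran from 1071 CPM (991–1156) in 56 cells led by Pf4 and Gp1bb, genes of platelets, to 2336 CPM (2213–2463) in 83 cells led by Gm5111, Cd34 and Sox4. The cluster led by Meg3, Tinagl1 and Sult1a1 was near the top at 2267 CPM (2126–2414). In the Id2-deleted library it ran from 359 CPM (325–396) in 58 cells led by 2810417H13Rik, Aurkb and Pbk and with Pf4 next, to 1003 CPM (909–1103) in 53 cells led by Sult1a1 and Procr. The lowest cluster of either library had Pf4 among its leading genes, and its interval lay clear of that of the highest cluster. It was also deeper, with medians of 10094.5 (Id2+/+) and 18817 UMIs (Id2-deleted), against 6549 and 7784 in the highest cluster. The next lowest Id2+/+ cluster, led by 2810417H13Rik, Bok and Hells, stood at 1373 CPM (1222–1536) with Pf4 at 141 CPM.

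The lowest Id2+/+ cluster thus lay above the highest Id2-deleted cluster for the summed level, although the intervals of this pair overlapped. By gene, the ranges over clusters did not overlap for Fos, from 121 to 289 CPM and from 16.2 to 78.2 CPM, for Fosb, from 45.4 to 95.5 CPM and from 11.2 to 37.9 CPM, and for Jun, from 384 to 890 CPM and from 73.8 to 273 CPM. These 3 genes stood beside 1.46% of the 10458 genes with every Id2-deleted cluster below every Id2+/+ cluster. The other 7 genes overlapped, although Jund, with Id2+/+ clusters at 229 CPM or more and Id2-deleted clusters at 244 CPM or less, did so narrowly. Junb overlapped most, from 29.8 to 106 CPM and from 36.9 to 83.0 CPM. With coarser clusters, 2 in the Id2+/+ and 4 in the Id2-deleted library, 7 of the 10 had ranges that did not overlap, beside 10.4% of genes. With finer ones, 8 per library, Fosb and Jun were the 2 that did not, beside 0.975% of genes. At that resolution the lowest Id2+/+ cluster was at 55.2 CPM for Fos and 835 CPM for the summed level, and the highest Id2-deleted cluster at 76.0 and 986 CPM, so that both ranges overlapped.

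**Figure D2:**
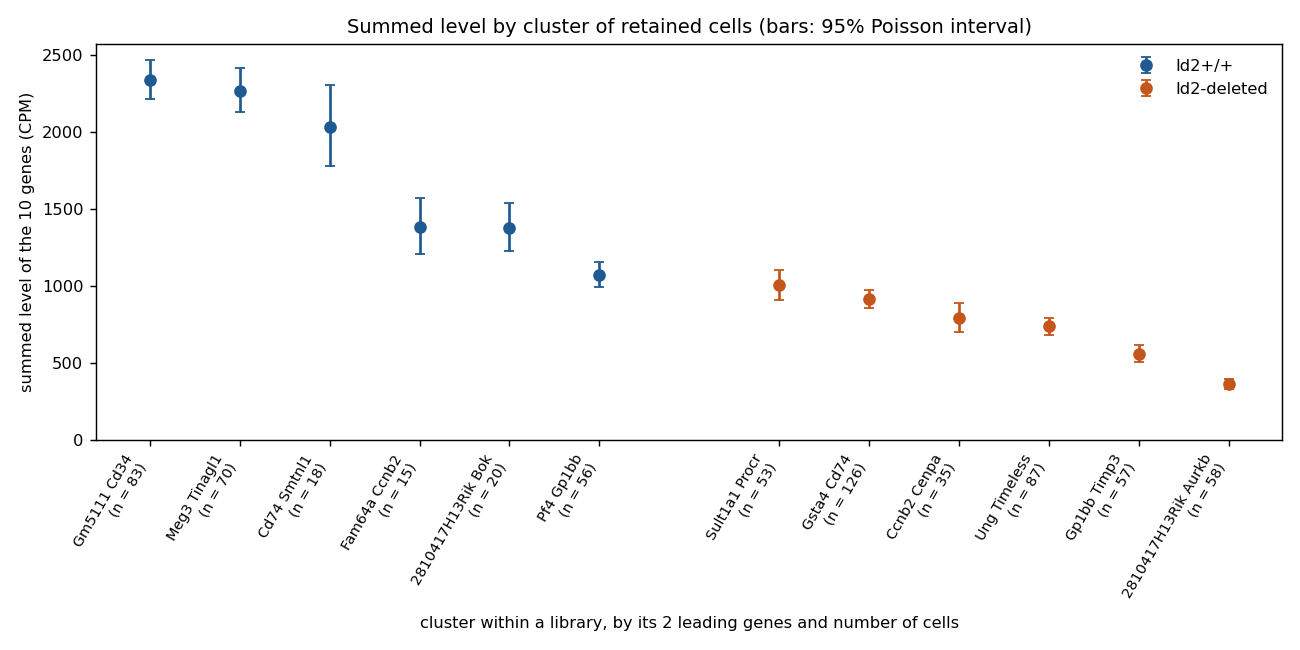
Points give the summed level of the 10 genes in CPM (vertical axis, from 0) in each of 6 clusters per library, with 95% Poisson intervals, ordered from high to low and labelled by 2 leading genes and number of cells. The Id2+/+ clusters run from 1071 to 2336 CPM and the Id2-deleted clusters from 359 to 1003 CPM, and the cluster led by Pf4 is the lowest of the Id2+/+ library.

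Other cell kinds captured in the same libraries carried lower levels in CPM, which is a share of UMIs and not an amount per cell. Erythroid-like cells, 35 and 156 of them with medians of 37549 and 40038.5 UMIs, had summed levels of 283 CPM (255–313) in the Id2+/+ library and 198 CPM (187–209) in the Id2-deleted library. The retained cells stood 6.23-fold (5.60–6.95) and 3.45-fold (3.23–3.68) higher in CPM. The erythroid-like levels came from 373 UMIs in 35 cells and 1250 UMIs in 156 cells. Those of the retained cells came from 3762 UMIs in 262 cells and 3200 UMIs in 416 cells. Neutrophil-like cells, 27 and 40 of them, had 483 CPM (422–551) and 350 CPM (308–395). The order of the summed level was retained, barcodes of 1 to 100 UMIs, neutrophil-like and erythroid-like in the Id2+/+ library, with no overlap of intervals between neighbours. In the Id2-deleted library the neutrophil-like cells came before the barcodes of 1 to 100 UMIs, and that pair of intervals nearly touched.

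**Figure D3:**
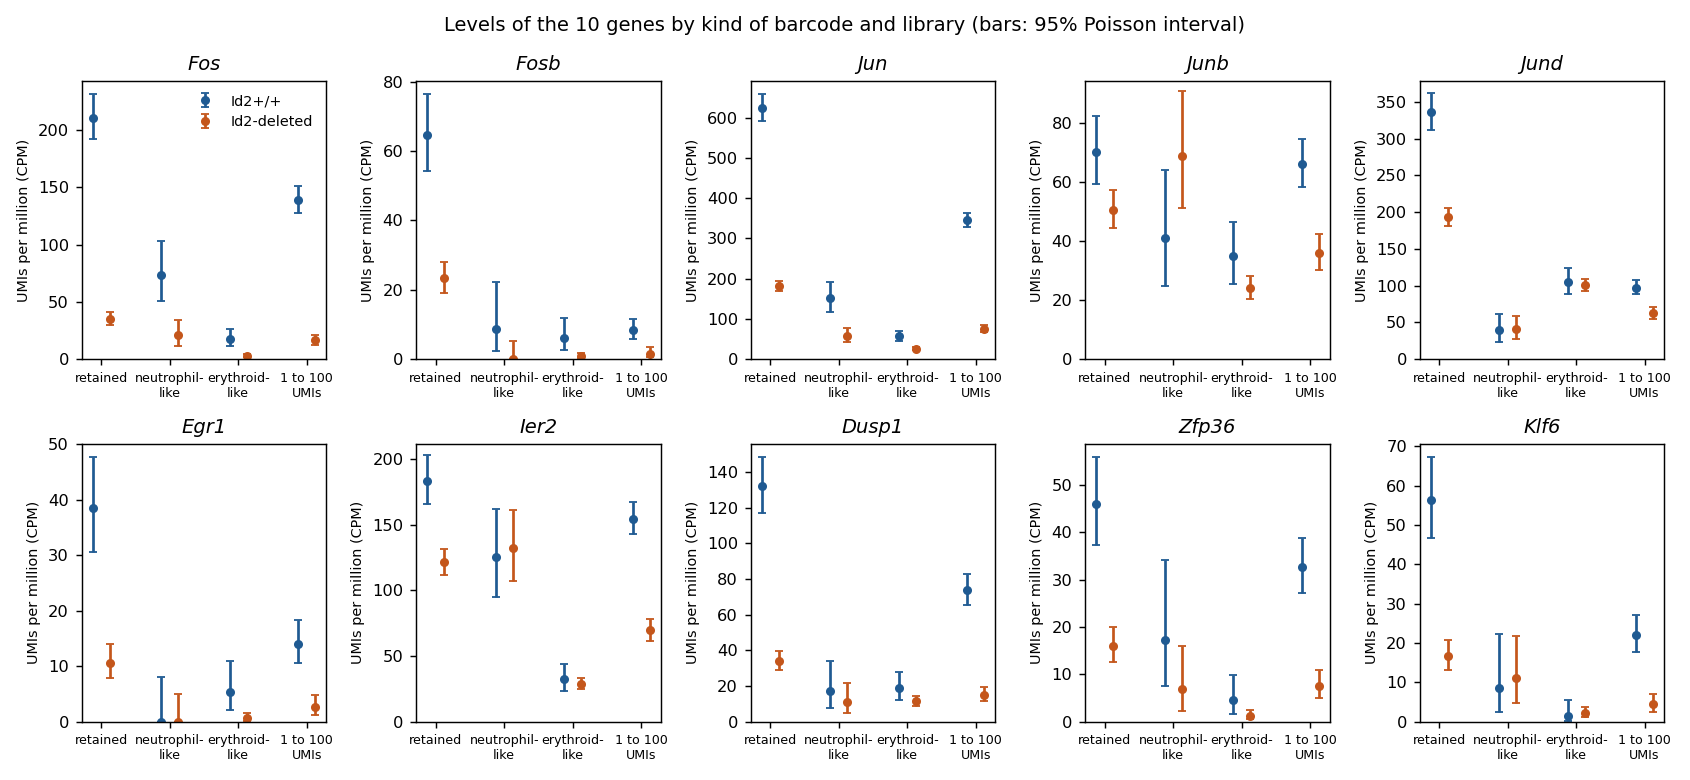
Each panel gives the level of a gene in CPM (vertical axis, from 0 and scaled per panel) in retained, neutrophil-like and erythroid-like cells and in barcodes of 1 to 100 UMIs, with Id2+/+ in blue, Id2-deleted in orange and bars for 95% Poisson intervals. In the retained cells the Id2+/+ point lies above the Id2-deleted point in all 10 panels, and Fos is the most separated of them, at 211 and 35.2 CPM.

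In erythroid-like cells 6 of the 10 genes had at least 20 UMIs, and 3 of these, Fos, Jun and Junb, had an interval of the ratio below 1, beside 8.46% of the 8790 genes with as many UMIs. Fos went from 17.4 CPM (11.1–26.2) to 2.69 CPM (1.57–4.31), a ratio of 0.154 (0.077–0.302) that is close to the ratio in the retained cells. Jun went from 56.1 CPM (44.1–70.4) to 25.4 CPM (21.6–29.6), a ratio of 0.452 (0.341–0.603). The intervals of Fosb, Egr1 and Zfp36 also lay below 1, but they rested on 4 to 8 UMIs per library and these genes are outside that share. Jund, with 105 CPM (88.6–124) and 101 CPM (93.1–109), had a ratio of 0.956 (0.795–1.16), and the interval leaves out the 0.575 of the retained cells. Ier2, at 32.6 and 28.8 CPM, had a ratio of 0.884 (0.631–1.26), and Dusp1, at 19.0 and 11.6 CPM, one of 0.610 (0.383–1.0). Klf6 had 2 and 14 UMIs there, a ratio of 1.46 (0.336–13.3).

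Neutrophil-like cells, of which there were few, had 5 of the 10 genes with at least 20 UMIs, and 2 of these, Fos and Jun, had an interval below 1, beside 5.9% of 5115 genes. Fos was at 73.6 CPM (51.0–103) and 20.6 CPM (11.6–34.1), Jun at 152 CPM (118–191) and 57.8 CPM (41.7–78.2). Fosb had 4 UMIs in the Id2+/+ library and 0 in the Id2-deleted library, which allows up to 4.13 CPM, and is outside that share. Ier2 was at 126 CPM (95.4–162) and 132 CPM (107–161), close to its level in retained Id2-deleted cells. Junb was at 41.1 CPM (24.8–64.2) and 68.8 CPM (51.1–90.7), a ratio of 1.67 (0.969–3.0). Egr1 had no UMI in either library, which allows up to 6.50 and 4.13 CPM, so that it was detected in the retained but not in the neutrophil-like cells.

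Haemoglobin-rich cells, 9 and 13 of them, held 8 and 19 UMIs of the 10 genes in all. Of the 19 in the Id2-deleted library 17 were Jund. No other gene had more than 2 UMIs in either library, and no gene other than Jund is described further in these cells.

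Barcodes of 1 to 100 UMIs, which are taken to hold mostly free RNA and include no called cell, had all 10 genes lower in the Id2-deleted library. They held 3985329 and 3846673 UMIs, nearly equal totals. The interval of the ratio lay below 1 for all 10 genes, but so it did for 40.3% of 9992 genes, and 8 of the 10 were lower by 2-fold or more beside 12.8% of genes. Fos was at 139 CPM (128–151) and 16.4 CPM (12.6–21.0), a ratio of 0.118 (0.089–0.153), and Jun at 345 CPM (327–364) and 74.3 CPM (66.0–83.5). Dusp1, at 73.8 and 15.1 CPM, had a ratio of 0.204 (0.151–0.272). Junb, at 66.2 and 35.9 CPM, and Jund, at 97.4 and 62.1 CPM, were the genes nearest to 1 here, with ratios of 0.542 (0.438–0.668) and 0.638 (0.541–0.752). The median log2 ratio of the 10 genes was -2.25, and that of all genes -0.34. Which cells this RNA came from is not given by the barcodes.

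The summed level in retained cells stood above that in the barcodes of 1 to 100 UMIs by 1.85-fold (1.77–1.94) in the Id2+/+ library and 2.36-fold (2.2–2.53) in the Id2-deleted library. Fosb stood out by gene, at 7.81-fold (5.31–11.8) and 14.9-fold (6.64–41.5). Junb in the Id2+/+ library was at about the same level inside and outside cells, 1.06-fold (0.863–1.30). An estimate of free RNA took all haemoglobin UMIs of the retained cells as free, with the profile of the barcodes of 1 to 100 UMIs. On these assumptions, which were not tested, free RNA made up 10.5% and 5.41% of the UMIs of the retained cells. Subtracting that share moved the log2 ratio of Fos from -2.58 to -2.59 and that of Jun from -1.78 to -1.81.

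**Figure D4:**
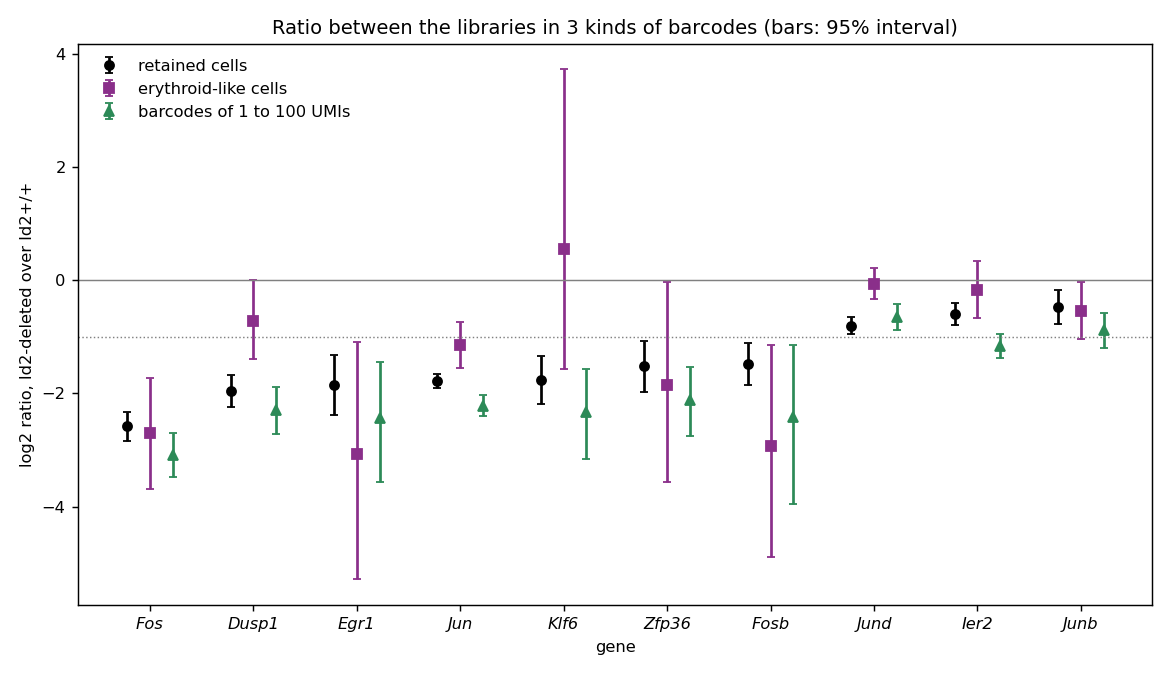
Points give the log2 of the ratio of CPM (vertical axis, Id2-deleted over Id2+/+) for each of the 10 genes in retained cells (circles), erythroid-like cells (squares) and barcodes of 1 to 100 UMIs (triangles), with 95% intervals, the solid line at no difference and the dotted line at 2-fold lower. In retained cells and in barcodes of 1 to 100 UMIs every interval lies below 0, and in erythroid-like cells those of Jund, Ier2, Dusp1 and Klf6 do not.

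The differences in the retained cells were looked at within subsets that are more alike between the libraries. Cells with Xist, transcribed from the inactive X chromosome, and cells with Y-linked RNA were present in both libraries. The retained cells with Xist and no Y-linked UMI numbered 84 and 231, those with the reverse 93 and 90. The summed level was 1311 and 657 CPM in the former, a ratio of 0.501 (0.464–0.542), and 2118 and 664 CPM in the latter, a ratio of 0.313 (0.286–0.344). The Id2+/+ cells with Y-linked UMIs thus stood higher than those with Xist, whereas the Id2-deleted cells were at 657 and 664 CPM. Fos was at 152 and 34.7 CPM in cells with Xist and at 281 and 35.3 CPM in cells with Y-linked UMIs. In the cells with Xist, Junb, at 52.0 and 52.9 CPM, and Ier2, at 123 and 120 CPM, had ratios of 1.02 (0.713–1.48) and 0.976 (0.775–1.24). In the cells with Y-linked UMIs Ier2 was at 242 and 112 CPM, a ratio of 0.461 (0.360–0.589) whose interval does not overlap that in cells with Xist, and Junb was at 69.9 and 51.4 CPM, a ratio of 0.735 (0.487–1.11).

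Among cells with no Pf4 UMI, 133 and 166, the summed level was 1980 and 805 CPM, a ratio of 0.407 (0.378–0.437), close to that of all retained cells. Fos was at 219 and 57.7 CPM in these cells, a ratio of 0.264 (0.203–0.340), whose interval does not overlap that of all retained cells. At or below the median depth of both libraries the ratio of the summed level was 0.442 (0.411–0.474), and above it 0.457 (0.426–0.490), so that cells of more equal depth differed a little less than all cells together. In cells above the median depth Junb was at 43.2 and 45.1 CPM, and Zfp36 at 19.6 and 13 CPM, a ratio of 0.667 (0.383–1.2) that compares with 0.348 in all retained cells. With every cell thinned to 5800 UMIs the log2 ratio was -1.28 for the summed level, -2.34 for Fos and -1.16 for Egr1, against -1.37, -2.58 and -1.84 without thinning.

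The known relatives, partners and controllers of the 10 genes were described from 5 lists, each beside the 4.43% of all genes that were lower and the 0.688% that were higher by 2-fold or more. Of 11 other AP-1 and bZIP genes with at least 20 UMIs 1 was lower by 2-fold, Maff, a small Maf protein, with 18 and 17 UMIs and a log2 ratio of -1.22. The median of the list was -0.25. Atf4, the stress response factor with the most UMIs of the list in Id2+/+ cells, was at 121 CPM (107–137) and 86.4 CPM (78.2–95.3), a log2 ratio of -0.49.

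Among 24 other immediate early genes 6 were lower by 2-fold or more and 0 higher, with a median of -0.55. Klf2, a Krüppel-like factor, went from 29.5 CPM (22.7–37.8) to 5.55 CPM (3.62–8.13), a log2 ratio of -2.40. Ppp1r15a, which directs the removal of phosphate from eIF2α, went from 91.4 CPM (79.0–105) to 34.4 CPM (29.3–40.1), and Rhob, a small GTPase, from 56.7 CPM (47.1–67.8) to 23.3 CPM (19.1–28.1). Plk2, Nr4a2 and Socs3, a kinase, a nuclear receptor and a suppressor of cytokine signalling, had log2 ratios of -1.98, -1.39 and -1.14 from 14 UMIs or fewer per library. For Socs3 the interval of the ratio, 0.201 to 1.03, included 1. Zfp36l2, a relative of Zfp36 with the most UMIs of the list, was at 591 CPM (558–624) and 306 CPM (291–323), a log2 ratio of -0.95.

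Feedback phosphatases and inhibitors of NF-κB had 2 of 16 genes lower by 2-fold and a median of -0.21. Nfkbiz, an atypical IκB protein, went from 20.6 CPM (15–27.7) to 2.77 CPM (1.48–4.74), a log2 ratio of -2.86, lower than that of any of the 10 genes. Dusp5, a nuclear phosphatase of ERK, was at 8.91 and 4.27 CPM, a log2 ratio of -1.06. Tsc22d3, a glucocorticoid-induced gene with the most UMIs of the list in Id2+/+ cells, was at 169 CPM (152–188) and 108 CPM (98.8–118).

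Kinases and factors that act on the 10 genes had 0 of 24 lower by 2-fold and a median of -0.31. Crem, a cAMP-responsive factor whose short forms repress, was the gene higher by 2-fold, with 3 and 27 UMIs and a ratio of 4.10 (1.26–21.1). Map2k2, a MAP kinase kinase with the most UMIs of the list, was at 146 CPM (130–163) and 163 CPM (151–175).

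Heat shock genes had a median log2 ratio of -0.02 over 14 genes, 7 below 0 and 7 above. Only some of them are stress-inducible and also respond to the handling of cells, so the median does not describe such a response. Hspa1a, a stress-inducible chaperone, was the gene of the 14 lower by 2-fold, from 21.1 CPM (15.4–28.2) to 2.35 CPM (1.17–4.20). Its log2 ratio was -3.12, from 45 and 11 UMIs. In the barcodes of 1 to 100 UMIs Hspa1a was at 34.4 and 4.42 CPM. Hspa1b had too few UMIs to be among the 14, with 11 in Id2+/+ and 1 in Id2-deleted retained cells. Its ratio was 0.0414 (0.000962–0.285). Among the 14, the interval of the ratio also lay below 1 for Dnaja1, Dnajb1 and Dnajb4. It lay above 1 for Hspa9, Hsp90aa1, Hsp90ab1, Hspd1 and Hspe1. Hspa8, the constitutive chaperone with the most UMIs of the list, was at 2813 CPM (2743–2885) and 2864 CPM (2816–2913). The part of cell handling in the levels of the 10 genes was not tested, since each genotype was prepared as 1 library, and genotype and preparation cannot be told apart.

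**Figure D5:**
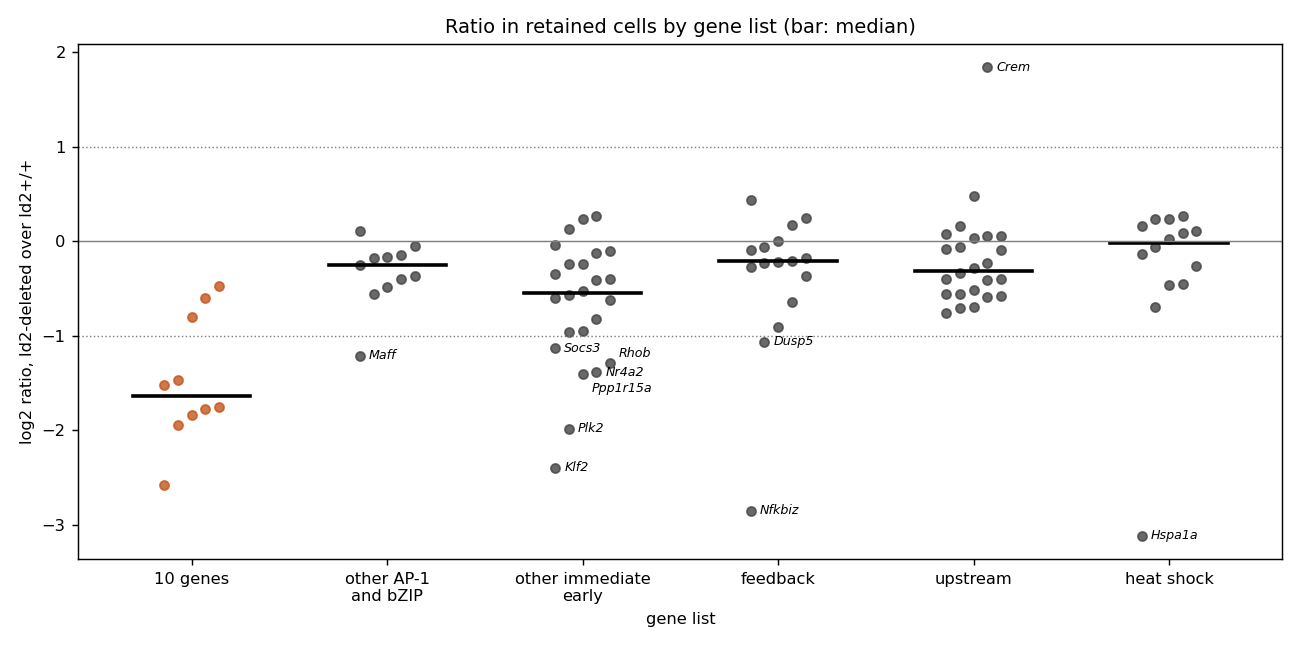
Points give the log2 ratio in retained cells (vertical axis, Id2-deleted over Id2+/+, 0.5 added to each count) of each gene with at least 20 UMIs, for the 10 genes in orange and 5 related lists in grey, with bars at the median, dotted lines at 2-fold and names for genes of the lists past 2-fold. The 10 genes, chosen for being low, have a median of -1.64, and the 5 lists have medians between -0.55 and -0.02.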

How the data were processed

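The authors deposited raw UMI counts by gene and barcode, 1 matrix of 737280 barcodes and 27998 genes per library and no cell calls. The submitters' processing notes name Cell Ranger 2.2.0 and mm10. The 10 genes, the lists and the tests were chosen with earlier results of these data known. Cells were barcodes with at least 10% of the 99th percentile of the 1000 deepest barcodes (349 and 632), kept below 10% mitochondrial UMIs (333 and 625), while the labels give 383 and 686 analyzed cells. Both libraries were clustered together (scanpy 1.11.5, 2000 variable genes without the 10 genes and the lists, 20 components, 15 neighbours, Leiden resolution 1). Clusters were removed as neutrophil-like or erythroid-like when HSC markers were lower and at least 4 markers of that type passed. A marker passed with a log2 fold above 1 and a UMI in 25% or more of the cells of the cluster. Erythroid-like clusters with a median haemoglobin share of at least 20% of UMIs were named haemoglobin-rich. Such names rest on these rebuilt clusters. Doublets were not removed. Scrublet, as an alternative, marked 2 and 1 cells.

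Counts were summed per library and kind of cell. CPM has exact Poisson intervals, ratios have exact conditional intervals and shares have exact Clopper-Pearson intervals, all at 95%. Limits for 0 use 3 counts. Log2 ratios were made after adding 0.5 to each count, for genes with 20 UMIs or more in all. The interval of the ratio was tested on simulated Poisson counts, which hold no variation between cells or libraries. Thinning was checked to give the set number of UMIs. Cells within libraries were clustered at resolution 0.8. Named genes are the 10, and in each list the genes past 2-fold and the one with most UMIs in Id2+/+ cells. The 8 genes with the highest mean rho were also named, and further heat shock genes were named after their values were seen. Of 35 other immediate early genes 34 were found by symbol. Alternatives used edgeR 4.0.16 (TMM scaling), other cell calls, thinning and subsets of cells. Locations are from RefSeq for GRCm38.p6. Promoter and protein sequences were not used here.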

Additional observations from a re-analysis of the deposited data

Results flagged for a closer look

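Jund in haemoglobin-rich cells lay on the other side of 1 from the retained cells. It had 1 UMI in 9 Id2+/+ cells and 17 UMIs in 13 Id2-deleted cells, or 12.3 CPM (0.312–68.7) and 152 CPM (88.6–244). The ratio was 12.3 (1.93–516), compared with 0.575 (0.520–0.635) in the retained cells. There is 1 library per genotype, and the difference was not tested.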

How the results depend on the processing

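No paired analysis was possible because there is only 1 library of each genotype. Over 21 alternatives, of which 3 were chosen after seeing the data, the number of the 10 genes lower by 2-fold or more was between 6 and 8 and their median log2 ratio between -1.96 and -1.27. The share of all genes lower by 2-fold or more ran from 1.83% with a minimum of 100 UMIs to 7.89% with no cell type removed, and was 54.5% with no minimum of UMIs. The log2 ratio of the summed level, -1.37, was run in 19 of them. It moved by more than its counting interval in 8 of these 19, with no change of direction. It was -1.45 with no cell type removed, -1.28 with cells thinned to the same UMIs, -0.998 in cells with Xist, -1.67 in cells with Y-linked UMIs, -1.20 in cells above the median mitochondrial share, -1.30 in cells with no Pf4 UMI, -1.18 at or below the median depth and -1.13 above it. Junb turned to the other side of 0, at 0.0107 in cells with Xist and 0.0474 in cells above the median depth. The other 9 genes stayed below 0 in each of 19 alternatives run gene by gene, between -2.98 and -1.92 for Fos and between -2.09 and -1.36 for Jun, and up to -0.04 for Ier2 in cells with Xist. Zfp36 at -0.61 above the median depth, Egr1 at -0.96 at or below the median mitochondrial share and Klf6 at -0.95 at or below the median depth were each less than 2-fold lower there, and Ier2 at -1.11 in cells with Y-linked UMIs was more than 2-fold lower. The number of genes whose cluster ranges did not overlap went from 3 to 7 at resolution 0.4, beside 10.4% of genes, and to 2 at resolution 1.2, beside 0.975%. The causes of these moves were not tested. Shares of cells with a UMI depend on the depth chosen, the Fos shares being 37.8% and 7.93% at 3000 UMIs. Egr1, Zfp36 and Klf6, with 50 to 120 UMIs per library, are the genes for which depth limits precision most.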
